A study of Ovis aries with 62 samples.

Results

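Enteric CH4 leaves the rumen as a product of methanogens, archaea that use the hydrogen released when microbes ferment feed. Because sheep that eat more feed emit more CH4, the comparison described here removed feed intake and body size first and asked which genes of the rumen wall separated sheep that emitted more CH4 than their intake predicted from sheep that emitted less. The rumen wall carries a cornified squamous epithelium over layers of connective tissue and smooth muscle. Its epithelium absorbs the short chain fatty acids of fermentation and turns a large share of the butyrate into ketone bodies, while its muscle mixes the contents and moves digesta onward.

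Residual CH4 was the residual of a regression of CH4 production on dry matter intake (DMI), live weight and test block over 61 sheep. Within each of the 4 test blocks, the 5 sheep with the highest and the 5 with the lowest residuals were taken, which gave 20 high and 20 low residual sheep of the 62 in the AUS series and left 21 sheep in the middle. All were adult Merino ewes fed chaffed lucerne and oat hay above maintenance, with CH4 measured in respiration chambers, and all groups shared the same diet and had no treatment. One RNA sequencing library was made per sheep from the full thickness of the ventral rumen wall. Sheep oz151 was left out because it is labelled with an implausibly low DMI and because its labelled CH4 production is the same as that of oz224, a middle sheep of the same block. The study states that the ewes came from few sires. Sire is not in the sample labels, so relatives may stand in the same group, and each p below takes the sheep as independent.

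DMI, live weight and block accounted for 77.4% of the variance of CH4 production in the 61 sheep. CH4 production was 13.9 g/d higher for each additional kg of DMI per day (95% interval 11.3 to 16.5) and 0.084 g/d higher for each kg of live weight (-0.0018 to 0.169). The values that chose the groups are given as a description. Residual CH4 ran from 0.675 to 6.01 g/d with a median of 2.24 g/d in the high residual sheep and from -4.19 to -0.588 g/d with a median of -2.65 g/d in the low residual sheep. The groups were widest apart in block 2, with means of 3.69 and -3.29 g/d, and closest in block 4, with means of 1.73 and -2.08 g/d. The borders were narrow in places. In block 1 the last sheep inside the high group had 1.00 g/d and the first outside 0.886 g/d, while in block 4 the last inside the low group had -0.588 g/d and the first outside -0.501 g/d. In block 3, which held 13 sheep in the regression, only 3 sheep lay between the groups.

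**Figure D1:**
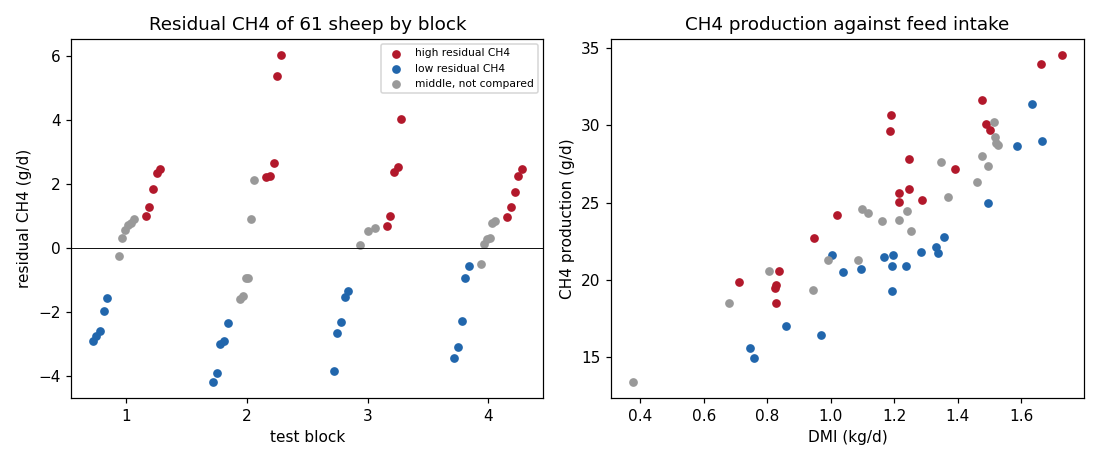
Residual CH4 of 61 sheep by test block (left, g/d, each point 1 sheep) and CH4 production in g/d against DMI in kg/d (right) for the 20 high residual (red), 20 low residual (blue) and 21 middle sheep (grey). High residual sheep lie above low residual sheep at a similar intake, and block 2 holds the highest residual, 6.01 g/d.

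The groups had similar DMI, which the regression had taken out, with 1.19 ± 0.297 kg/d (SD, n = 20) in the high and 1.21 ± 0.267 kg/d (n = 20) in the low residual sheep. Live weight was 61.7 ± 8.84 kg and 64.2 ± 8.95 kg. CH4 production was 26.1 ± 4.92 g/d in the high and 21.7 ± 4.29 g/d in the low residual sheep, and CH4 yield, the production per kg of DMI, was 22.3 ± 2.37 and 18.1 ± 1.59 g/kg. The groups shared more sheep with a grouping by yield than with one by production. Of the 20 high residual sheep, 14 were also among the 5 highest of their block by yield and 10 by production. Of the 20 low residual sheep, 16 were among the lowest by yield and 10 by production, while 4 high residual sheep were among the lowest producers and 3 low residual sheep among the highest.

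The 40 libraries held 4208032 to 10869466 reads assigned to genes, recovered from the deposited log2 CPM (reads scaled to library size, on a log2 scale). The high residual libraries held 8093569 reads on average and the low residual libraries 7505127. The group means did not differ detectably (2-sided permutation test within blocks, p = 0.2293). By block, high minus low was -389473, -45829, 1886111 and 902956 reads in blocks 1 to 4. Markers of all layers of the wall were present in each of the 40 libraries. The epithelial cadherin CDH1 lay between 255 and 522 CPM, the smooth muscle myosin MYH11 between 4484 and 25886 CPM and the collagen COL3A1 between 597 and 4096 CPM. The mean of 43 epithelial differentiation genes was lowest in a pair of low residual libraries of block 1, oz171 and oz93. It was 5.70 and 6.03 there on the log2 CPM scale, against a group median of 7.81. Low values in block 1 were not confined to the low residual group. The high residual oz125 had 6.57 and the middle sheep oz89 and oz109 had 6.22 and 6.65, while the middle sheep oz73 reached 8.08. The study reports lower expression of these genes in this block than in the others and states that the reasons are unknown. In bulk tissue of this kind, fewer cells of a type and less RNA per cell cannot be told apart.

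No gene separated high from low residual sheep after adjustment for the 16011 genes tested. With limma and block as a factor, 0 genes (0%) passed an adjusted p of 0.05, and the smallest adjusted p was 0.997. At an unadjusted p of 0.05, 340 genes (2.12%) were higher and 340 genes (2.12%) lower in high residual sheep, 4.25% together. With voom weights on the recovered reads, limma again called 0 genes, with 695 at an unadjusted p of 0.05. Every count below at an unadjusted p of 0.05 is therefore a description against this background of 2.12% in each direction. Differences are high minus low residual sheep on the log2 CPM scale, each with its standard error (SE), and the values of the high and low groups overlapped in every one of the 16011 genes.

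For well expressed genes the interval of each difference was narrow. These intervals are not adjusted for the 16011 genes tested, so a gene whose interval left out 0 could still go uncalled. The 95% interval reached a median of 0.24 to either side of the difference over all genes and of 0.17 over the 9939 genes that no library measured under 3 CPM. For 98.0% of those 9939 genes the interval lay within a change of 1.5-fold in either direction, and for 99.9% within a doubling or halving. Over all 16011 genes, 91.0% of the intervals lay within a doubling or halving. The difference was positive for 8009 of the 16011 genes, and its median was 0.00011. The single largest difference, named here after its values were seen, was -2.84 ± 0.83 (SE) for the added gene model Addition43, with 7 of 20 low and 12 of 20 high residual libraries at 0 reads.

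No gene of epithelial energy metabolism passed the test. The study singled out 14 metabolic genes for their relation to CH4 production and CH4 yield, in part on these sheep, so they are no independent test here. None passed the test even at an unadjusted p of 0.05. Of the 14, 11 were higher and 3 lower in high residual sheep, with differences from -0.05 to 0.18 and a median of 0.04, against 0.00011 over all genes. The mean of the 14 genes was 7.76 ± 0.36 (SD, n = 20) in high and 7.70 ± 0.33 (n = 20) in low residual sheep, a difference within blocks of 0.06 (95% interval -0.15 to 0.26). It was 0.20 in block 2 and -0.04 in block 4. The median over the 14 genes depended on how the sheep were chosen and ranged from -0.02 to 0.24 over the alternatives, highest with 3 sheep per group and block.

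Ketone body synthesis makes acetoacetate and beta-hydroxybutyrate from butyrate. All 9 genes of the list were measured and 0 passed at an unadjusted p of 0.05. Of them 5 were higher and 4 lower, with a median difference of 0.002, which reached 0.15 with 3 sheep per group and block. Among the 4 lower were OXCT1, absent from the study's network, and ACSS1, which the study places in its muscle cluster. ACADS, the dehydrogenase that takes the first oxidation step on butyryl-CoA, lay between 6.88 and 8.67 with a median of 7.78 in low residual sheep and between 7.12 and 8.62 with a median of 7.98 in high residual sheep. Its difference of 0.18 ± 0.12 (SE, 95% interval -0.07 to 0.43) was the largest of the 9.

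BDH1, which reduces acetoacetate to beta-hydroxybutyrate, lay between 8.62 and 9.88 (median 9.30) in low and between 8.46 and 10.07 (median 9.39) in high residual sheep. It differed by 0.12 ± 0.11 (-0.11 to 0.35) and was higher in the high residual sheep of all 4 blocks, by 0.004 to 0.31. OXCT1, which spends ketone bodies as fuel, had the lowest difference of the 9, -0.09 ± 0.13. Across these enzymes no interval reached a doubling. The lowest bound was -0.43, for ACSS1, which activates acetate in mitochondria, and the highest was 0.43, for ACADS.

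Enzymes around this pathway also had small differences. The 12 measured genes of fatty acid activation and beta oxidation had a median difference of -0.008, the 5 of propionate and branched-chain amino acid breakdown 0.01, the 7 aldo-keto and carbonyl reductases 0.01 and the 16 conjugation and detoxification genes -0.003. In none of these lists did a gene pass at an unadjusted p of 0.05. PCCB, a subunit of the propionyl-CoA carboxylase, differed by 0.05 ± 0.08, and IVD, which oxidizes isovaleryl-CoA from leucine, by -0.03 ± 0.09. HSD17B13, a lipid droplet dehydrogenase, differed by 0.04 ± 0.14 and HPGD, which inactivates prostaglandins, by -0.14 ± 0.13. The sulfotransferase SULT1C2 differed by 0.18 ± 0.17 and SUOX, the sulfite oxidase, by -0.10 ± 0.11.

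The rest of the 14 metabolic genes stayed within the spread between sheep. The reductases AKR1C4 and CBR1 differed by 0.01 ± 0.13 and 0.03 ± 0.13, and Prostaglandin F synthase1-like by 0.03 ± 0.13. BSG, the chaperone of the monocarboxylate transporters that export ketone bodies and lactate, differed by 0.06 ± 0.09 and MAOA, a monoamine oxidase, by 0.04 ± 0.11. ETFA-like, named for a carrier of electrons from acyl-CoA dehydrogenases, differed by -0.001 ± 0.09. ACSF2, an acyl-CoA synthetase, differed by -0.04 ± 0.09, FAM162A by -0.05 ± 0.09 and ABHD11 by 0.09 ± 0.11. RPL35-like, named for a ribosomal protein, had the smallest p of the 14 and differed by 0.12 ± 0.07 (-0.02 to 0.25).

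The metabolic genes had other values when the sheep were grouped by CH4 production. For this grouping the 5 highest and 5 lowest sheep of each block were taken by production. All 14 metabolic genes were then higher in high producers at an unadjusted p of 0.05 (median 0.33). Over all genes, 5.92% were higher and 4.9% lower. The study picked the 14 genes in part for correlation with CH4 production in these sheep. Their direction by production was thus built in and is no finding here. ACADS was higher by 0.47 (95% interval 0.27 to 0.66) and CBR1 by 0.45 (0.20 to 0.69), neither of them past adjustment (adjusted p of 0.060 and 0.171 in limma). Between the residual groups the same genes differed by 0.18 and 0.03. When taken by CH4 yield, the same 14 genes had a median difference of 0.03 and none passed at an unadjusted p of 0.05.

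The production groups differed in intake, with a DMI of 1.44 ± 0.185 kg/d (SD, n = 20) in high and 0.930 ± 0.232 kg/d (n = 20) in low producers, and in live weight, with 69.0 ± 9.28 and 59.5 ± 6.53 kg. The yield groups differed in intake the other way, with 0.999 ± 0.279 kg/d in the high and 1.30 ± 0.221 kg/d in the low yield sheep. The 3 groupings share many sheep, and the difference between them was not tested. By production, 2 genes (0.0125%), named after their values were seen, passed an adjusted p of 0.05. High minus low producers differed by 0.54 (0.33 to 0.75) in ENSOARG00000007732 and by -2.16 (-2.95 to -1.36) in ENSOARG00000008513, and between the residual groups the same genes differed by 0.03 and -0.70, with unadjusted p of 0.838 and 0.186. By yield 0 genes (0%) passed, with 1.74% of genes higher and 1.88% lower at an unadjusted p of 0.05 in limma.

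**Figure D2:**
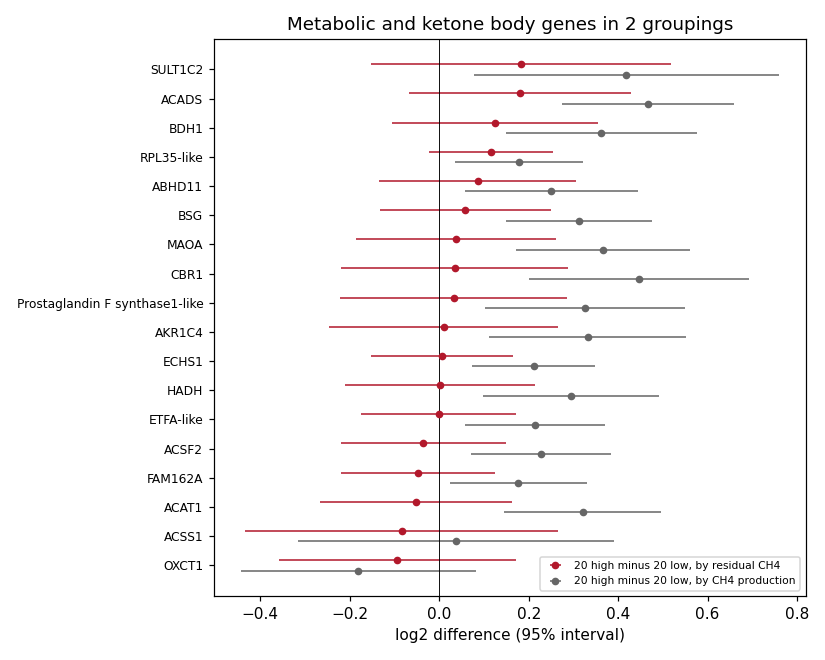
Log2 difference with its 95% interval (horizontal) for 18 of the metabolic and ketone body synthesis genes, as high minus low residual sheep (red) and as high minus low CH4 production sheep (grey), 20 against 20 sheep in each. All 18 residual intervals include 0, and 16 of the 18 production intervals lie above 0. The study picked the metabolic genes in part for correlation with CH4 production in these sheep, so their production values are no independent result.

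The genes that carry fermentation acids and ions across the epithelium were compared by transcript level only. Of the 16 genes of short chain fatty acid, acid and ion transport, 1 was higher and 0 lower at an unadjusted p of 0.05, and the median difference was 0.03. The exception was CLIC1, a chloride intracellular channel protein, which lay between 6.70 and 8.12 (median 7.83) in low and between 7.16 and 8.48 (median 8.10) in high residual sheep and differed by 0.22 ± 0.09. It was higher in all 4 blocks, by 0.08 to 0.38. At the other end was CHP1, a calcium-binding partner of sodium-proton exchangers, with a difference of -0.19 ± 0.12. The proton exchanger SLC9A3 differed by 0.21 and the monocarboxylate transporter SLC16A1 by 0.02, neither with an unadjusted p under 0.05.

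The clearest one-sided group among higher genes was the type I interferon response, the antiviral program that cells start when they sense foreign nucleic acid. All 15 genes of the list were higher in high residual sheep, by 0.06 to 0.54 with a median of 0.33, and 4 of the 15 had an unadjusted p under 0.05. The study's network, built in part from these libraries, places these genes in a single cluster, so they are not independent of each other. The mean of the 15 genes lay between 4.21 and 6.69 (median 5.07) in low residual sheep and between 4.43 and 7.62 (median 5.50) in high residual sheep, and the groups overlapped over most of that range. The difference of the mean was 0.31 (95% interval -0.04 to 0.67), an interval that includes 0. It was positive in all 4 blocks, with 0.18, 0.34, 0.65 and 0.09 in blocks 1 to 4, and 14 of the 20 high residual sheep lay above the median of the low residual sheep of their block.

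DHX58, a regulator of the cytoplasmic RNA sensors, ranged from 2.37 to 5.54 (median 3.44) in low and from 2.96 to 5.59 (median 4.24) in high residual sheep, with a median of 3.95 in the middle sheep. Its difference of 0.46 ± 0.17 had the smallest p of all higher genes with a symbol (p = 0.011 unadjusted in limma), and 17 of 20 high residual sheep lay above the low median of their block. PARP9, an interferon-induced partner of the ubiquitin ligase DTX3L, ranged from 3.12 to 5.96 (median 4.13) in low and from 3.26 to 7.09 (median 4.73) in high residual sheep and differed by 0.54 ± 0.21. It was widest in block 3, at 1.08. The other genes of the list under this threshold, named after their values were seen, were the RNA sensor IFIH1 with 0.37 ± 0.18 and the RNA-activated kinase EIF2AK2 with 0.27 ± 0.13. The antiviral GTPase MX1 differed by 0.40, with an unadjusted p of 0.243.

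One high residual sheep of block 3, oz238, had the highest interferon mean of all 40, 7.62, and the next highest was a low residual sheep of the same block, oz200, at 6.69. Leaving out each of the 40 sheep in turn moved the median difference of the list between 0.22 and 0.41. Without block 3 it was 0.19. Of the 12 listed leukocyte markers, 1 had a symbol, LY96, a partner of a Toll-like receptor. LY96 lay between 2.14 and 4.09 (median 3.63) in low and between 2.29 and 4.42 (median 3.74) in high residual sheep and differed by 0.26 ± 0.13. A single gene cannot stand for leukocytes. LY96 was 2.14 in oz171 and 2.45 in oz93, low residual sheep that were also low in epithelial differentiation genes. The part of leukocytes in the interferon difference was not tested.

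The lowest group in high residual sheep was the set of mitochondrially encoded genes, of which 4 of the 9 listed had a symbol. Symbols came only from the study's tables, which hold genes picked in part by CH4 traits and retention time in these sheep. The 4 are therefore no independent sample of the mitochondrial genes. All 4 had an unadjusted p under 0.05, against 2.12% of all genes lower, and their median difference was -0.54. MT-ATP6, a subunit of the ATP synthase, ranged from 5.96 to 9.06 (median 7.43) in low and from 4.94 to 8.496 (median 6.53) in high residual sheep, with a median of 7.01 in the middle sheep. Its difference of -0.75 ± 0.28 corresponds to 0.593 of the low residual level (95% interval 0.403 to 0.873). CYT.B, the cytochrome b of complex III, differed by -0.59 ± 0.23, MT-ND5, a subunit of complex I, by -0.48 ± 0.17 and COIII, a subunit of cytochrome c oxidase, by -0.48 ± 0.23.

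The mean of the 4 mitochondrial genes lay between 7.36 and 9.83 (median 8.82) in low residual sheep and between 7.17 and 9.61 (median 8.15) in high residual sheep. Its difference was -0.58 (95% interval -1.02 to -0.13), and only 2 of the 20 high residual sheep lay above the low median of their block. It was widest in block 3, with -1.33 against -0.39, -0.44 and -0.15 in blocks 1, 2 and 4. In that block the high residual sheep had means of 7.17, 7.33, 7.34, 7.40 and 8.74 and the low residual sheep 8.03, 8.43, 9.04, 9.31 and 9.83. Without block 3 the median difference was -0.32. The interaction of group and block in MT-ATP6 had an unadjusted p of 0.129 in limma. The 22 respiratory chain genes encoded in the nucleus had a median difference of -0.02, with 0 under an unadjusted p of 0.05, and lay between -0.13 and 0.04. NDUFB6 differed by -0.10 ± 0.06 and NDUFV2 by 0.04 ± 0.07, both subunits of complex I. Assigned reads also differed most in block 3, where the high residual libraries held 1886111 more on average than the low residual libraries. The part of depth or of library preparation in the mitochondrial difference was not tested.

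**Figure D3:**
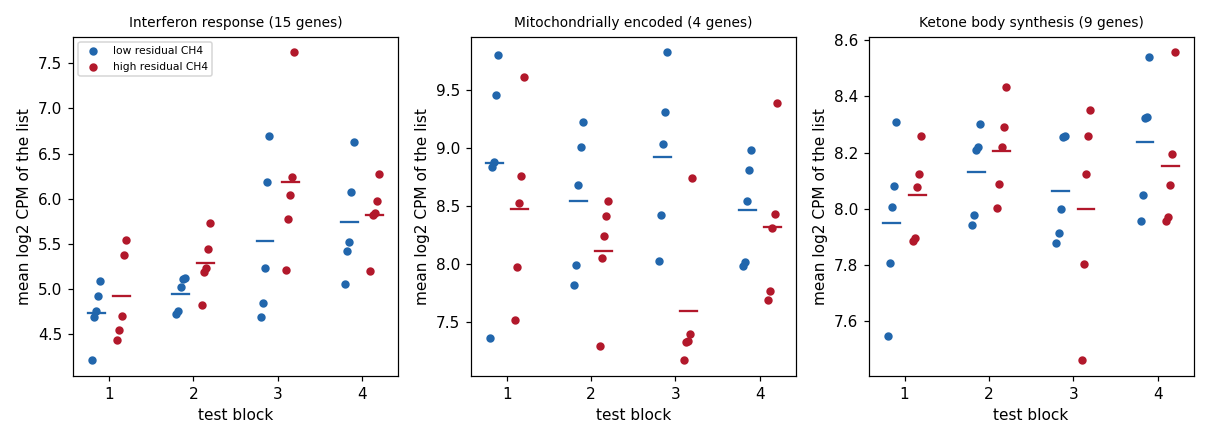
Mean log2 CPM of the interferon response list (15 genes), the mitochondrially encoded genes (4) and the ketone body synthesis list (9) in each sheep by test block, with low residual sheep in blue, high residual sheep in red and a bar at each mean of 5 sheep. Interferon means overlap in every block and reach 7.62 in 1 sheep, while the mitochondrial means are furthest apart in block 3.

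Most genes of the muscle had lower values in high residual sheep, none past adjustment. Of the 647 genes of the muscle cluster that the study built in part from these libraries, 520 had a negative difference, with a median of -0.06, and 10 were lower and 0 higher at an unadjusted p of 0.05. All 19 measured smooth muscle contractile genes had a negative difference, from -0.30 to -0.05 (median -0.17), and 0 of them had an unadjusted p under 0.05. CALD1, the caldesmon that damps actomyosin, ranged from 9.99 to 12.29 (median 10.85) in low and from 9.36 to 12.04 (median 10.70) in high residual sheep and differed by -0.30 ± 0.22. MYH11 differed by -0.13 and the intermediate filament DES by -0.21. The mean of the contractile list differed by 0.14, -0.26, -0.20 and -0.34 in blocks 1 to 4, and its difference over all blocks of -0.17 had a 95% interval from -0.53 to 0.20.

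The study connected digesta retention time with CH4 yield and listed genes that differed between sheep with long and short retention, on some of these sheep, so their direction here is not independent. Of the 236 genes of that list, 30 were lower and 3 higher at an unadjusted p of 0.05, with a median of -0.16. The study drew 41 candidates from it by negative correlation with retention time in the AUS sheep. It also reports negative correlations with CH4 yield for genes among them. A shared direction was thus built into the 41 and is no finding here. All 41 were lower, 9 of them at an unadjusted p of 0.05, with a median of -0.26. The mean of the 41 was 4.03 ± 0.65 (SD, n = 20) in high and 4.29 ± 0.53 (n = 20) in low residual sheep, a difference of -0.25 (95% interval -0.57 to 0.06). It was near 0 in block 1, at -0.001, and -0.57 in block 3. Among the candidates, and named after their values were seen, were PRKACA, the catalytic subunit of protein kinase A, at -0.36 ± 0.17 and MAPRE2, a microtubule end-binding protein, at -0.36 ± 0.18. With the mean of the muscle cluster as a covariate, the median of the 41 candidates was -0.16 and that of the contractile genes -0.06.

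**Figure D4:**
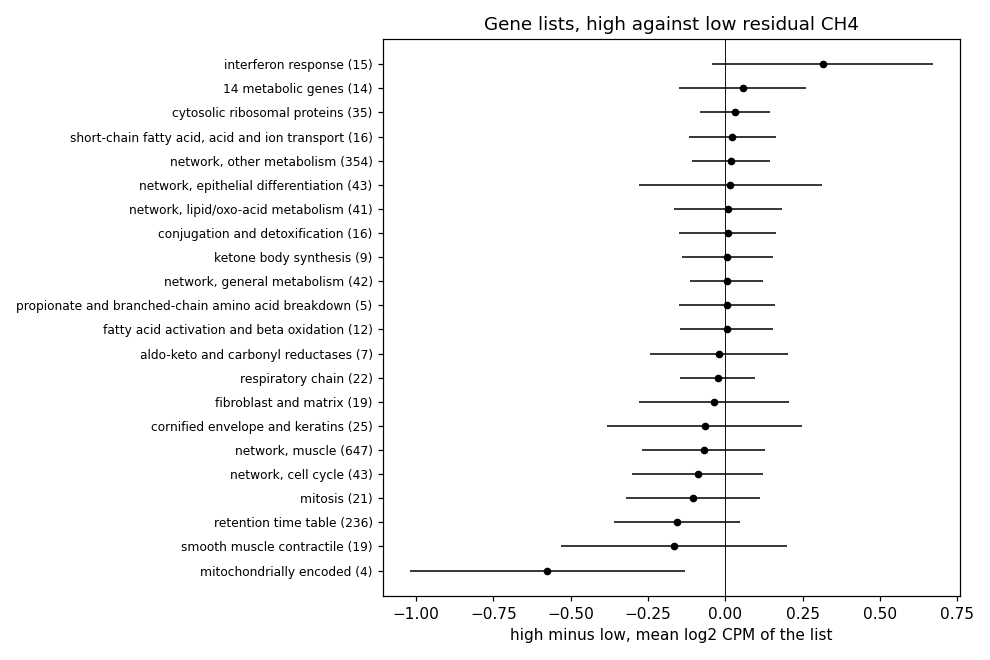
High minus low residual sheep in the mean log2 CPM of each gene list (points, adjusted for block) with its 95% interval (lines), and the number of measured genes in brackets. The interval of the mitochondrially encoded genes, -1.02 to -0.13, is the only one that leaves out 0. It covers 4 of the 9 listed genes, those with a symbol in the study's tables.

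Cell division and cornification gave small values. All 21 mitosis genes had a negative difference, from -0.35 to -0.02 with a median of -0.10, and 1 had an unadjusted p under 0.05. That gene was MKI67, the proliferation antigen Ki-67, which ranged from 5.42 to 8.11 (median 6.16) in low and from 4.63 to 7.54 (median 5.95) in high residual sheep and differed by -0.35 ± 0.15. The mean of the list differed by -0.37, 0.07, -0.13 and 0.02 in blocks 1 to 4. Among 25 genes of the cornified envelope and keratins, 1 was higher, 1 lower and the median was -0.04. OVOL1, a transcription factor of epithelial differentiation, lay between 3.06 and 4.78 (median 4.17) in low and between 3.62 and 4.96 (median 4.40) in high residual sheep and differed by 0.27 ± 0.11. PRD-SPRRII-like1, an added model of a small proline-rich protein, differed by -0.40 ± 0.20. Without oz171, the low residual sheep with the least cornification, the median of the list was -0.13.

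The other clusters of the study's network had medians near 0. The median was -0.001 for 41 lipid and oxo-acid metabolism genes, 0.008 for 42 general metabolism genes, 0.01 for 354 other metabolism genes, 0.04 for 43 epithelial differentiation genes and -0.09 for 43 cell cycle genes. At an unadjusted p of 0.05, 3 of the 354 were higher and 0 lower, 1 epithelial differentiation gene was higher and 1 lower, and 1 cell cycle gene, MKI67, was lower.

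Ribosomal and stromal genes differed little. The 35 gene models of 31 cytosolic ribosomal proteins had a median of 0.03, from -0.05 to 0.12, and 0 had an unadjusted p under 0.05. RPL31 differed by 0.11 ± 0.07 and RPS12 by -0.05 ± 0.06. The 19 fibroblast and matrix genes had a median of -0.03, with COL6A3, a chain of collagen VI, at 0.06 ± 0.13 and the collagen-binding proteoglycan FMOD at -0.17 ± 0.15. MCAM, listed as endothelial, differed by -0.10 ± 0.15 and the lipid droplet protein PLIN4 by -0.04 ± 0.19. Each was the only member of its list with a symbol, and a single gene cannot stand for a cell type. For nerve and glia, interstitial cells of Cajal and red blood cells 0 listed markers had a symbol, so these cells could not be read.

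The 8 genes with the smallest p in each direction among the 1224 with a symbol included members of the lists above and other genes. Among the higher genes was PTPN2, a phosphatase that dampens JAK-STAT signaling, which lay between 5.35 and 6.46 (median 6.13) in low and between 5.85 and 6.68 (median 6.33) in high residual sheep and differed by 0.19 ± 0.07. AACS, the cytosolic synthetase that turns acetoacetate into acetoacetyl-CoA for lipid synthesis, differed by 0.35 ± 0.15, by -0.13 in block 1 and by 0.35, 0.67 and 0.51 in blocks 2 to 4. TMEM184A, a transmembrane protein, differed by 0.22 ± 0.09 and the nuclear pore subunit NUP93 by 0.17 ± 0.08.

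Among the lower genes CCDC6, a coiled-coil protein, ranged from 4.76 to 6.52 (median 5.66) in low and from 4.70 to 6.24 (median 5.19) in high residual sheep. It differed by -0.32 ± 0.11 (p = 0.0076 unadjusted in limma), had differences of -0.16, -0.39, -0.48 and -0.24 in blocks 1 to 4, and 4 of 20 high residual sheep lay above the low median of their block. PLEKHA3, an adaptor at the Golgi, lay between 3.11 and 4.36 (median 4.00) in low and between 2.94 and 4.60 (median 3.64) in high residual sheep and differed by -0.26 ± 0.11. The RNA-binding proteins ZFR and FAM120A differed by -0.21 ± 0.08 and -0.21 ± 0.09, and the lysosomal TMEM106B by -0.29 ± 0.12. All 16 of the genes with the smallest p kept their sign when each sheep or block was left out. They were picked by p in the same sheep, so a kept sign is no separate support for them.

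Using every sheep rather than the extremes did not bring genes past adjustment. Over 61 sheep, the slope of expression on residual CH4 passed an adjusted p of 0.05 in 0 genes (0%), with a smallest adjusted p of 0.52, and 3.68% of genes had a positive and 3.65% a negative slope at an unadjusted p of 0.05 (1174 genes in limma). Against that background, 6 of 15 interferon genes had a positive slope. So did 4 of the 14 metabolic genes, among them ACADS with 0.05 log2 units per g/d. The study picked the 14 in part for correlation with CH4 production and yield in these sheep, so their share is no independent result. Of the 647 muscle cluster genes, which were grouped by correlated expression, 88 had a negative slope, and of the 41 retention candidates 25. Those 41 were picked for negative correlation with retention time in the AUS sheep, so their share is no independent result. The slope also uses the same trait and sheep as the groups and is not independent of them. PLEKHA3 had a slope of -0.07 and CCDC6 also of -0.07 per g/d. The difference between high and low residual sheep did not vary detectably between the 4 blocks in any gene, since the interaction of group and block passed an adjusted p of 0.05 in 0 genes (0%), with 367 at an unadjusted p of 0.05 in limma and a smallest adjusted p of 1.00. With 5 sheep per group and block, this comparison was less precise than the pooled one.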

How the data were processed

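The deposited values are log2 CPM made by the authors with voom. Per the study's methods, stranded reads from rRNA-depleted RNA were placed on Ensembl sheep genes plus added epidermal models (TopHat with Bowtie2) and counted with HTSeq, and edgeR appears among the tools in the submitters' processing notes. Values covered 16011 genes in 62 sheep. Symbols came from the study's tables and cover 1224 genes, so named genes are chosen among these. Reads were recovered from the values (100% whole within 0.01 reads). Groups were compared with limma 3.58.1 in R 4.3.3 (variance trend, block as a factor, Benjamini-Hochberg over all genes, threshold 0.05), after a check on simulated data. Named genes were all genes past adjustment, the 8 with the smallest p in each direction, the metabolic and ketone body genes, the smallest p in each list and direction, and up to 10 genes past adjustment by slope or interaction. Assigned reads were compared with 100000 permutations within blocks. Lists were described by counts, medians and intervals of their mean, with no set test. The members, lists and tests were chosen with earlier results of these data known. The network, metabolic and retention lists of the study were added as lists after the data were seen. Normalization by muscle genes was used only as an alternative. Of the metabolic and ketone body genes, 2 are not reported here by name.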

Additional observations from a re-analysis of the deposited data

How the results depend on the processing

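In 20 alternatives and with each of the 40 sheep left out, 0 genes passed an adjusted p of 0.05, and the smallest adjusted p was 0.32, with the muscle mean as a covariate. The count at an unadjusted p of 0.05, 680 in the comparison as reported, was 416 among the 9939 genes at 3 CPM or more, 1117 with the 4 highest and lowest sheep per block, 1138 with 3, 1174 for the slope over 61 sheep, 1359 with oz151 kept in the regression, 1098 with logged CH4, DMI and live weight, and 433 without block 3. It was 552 to 880 with single sheep left out. Leaving out oz175 or, as an alternative chosen after seeing the data, oz224 gave the same groups. Keeping oz151 exchanged 5 of the 20 high and 1 of the 20 low residual sheep. Of the 54 named genes, some of them picked by small p in these sheep, 32 kept their sign in all 19 alternatives that give a difference. Median differences ranged from 0.19 to 0.39 for the interferon list, from -0.78 to -0.32 for the mitochondrial genes, from -0.02 to 0.24 for the 14 metabolic genes, from -0.035 to 0.153 for ketone body synthesis, both highest with 3 sheep per block, and from -0.40 to -0.003 for the contractile genes. With the muscle mean as a covariate 837 genes had an unadjusted p under 0.05 for the slope. No paired analysis was possible because each sheep is in 1 group and its number marks an animal. Depth limits genes of few reads.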
